A study of Rattus norvegicus with 6 samples.

Results

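The 10 microRNAs (miRNAs) described here are markers of lineages other than heart: miR-141-3p, miR-200c-3p, miR-200a-3p and miR-200b-3p for epithelium, miR-142-5p, miR-142-3p, miR-150-5p and miR-223-3p for blood cells, miR-124-3p for neurons and miR-122-5p for liver. Their probe sets are, in that order, MIMAT0000846_st, MIMAT0000873_st, MIMAT0000874_st and MIMAT0000875_st, then MIMAT0000847_st, MIMAT0000848_st, MIMAT0000853_st and MIMAT0000892_st, then MIMAT0000828_st, and MIMAT0000827_st. They were chosen for the lineage each marks, as a purity check of a cell culture, with earlier results of these data known. The members make up 10 of the 728 mature rat miRNA probe sets in a table of 1277 probe sets. The cultures were cardiac stem cells (CSCs), progenitor cells isolated from hearts of Sprague Dawley rats aged 4 weeks. CSCs kept without exosomes were compared with CSCs grown for 3 days in medium supplemented with exosomes, small extracellular vesicles, that came from bone marrow mesenchymal stem cells (MSCs) at passage 4. Each group was measured on 3 Affymetrix arrays, 6 in all. No genotype, transgene or drug is given for either group, and nothing in the labels tells whether replicate arrays stem from separate cultures, so the p-values reflect the spread among arrays alone, possibly a technical one. The exosomes were recovered with a precipitation reagent, and no CSCs treated with a precipitate lacking vesicles are among the groups.

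Each of these miRNAs is used as a lineage mark because its gene is active in few cell types. The miR-200 family, to which miR-141 belongs, keeps epithelial cells epithelial by repressing the transcription factors Zeb1 and Zeb2, and is low in mesenchymal cells. miR-142 is made throughout the blood cell lineages from a single hairpin that yields both its arms, miR-150 is abundant in mature lymphocytes, and miR-223 in neutrophils and other myeloid cells. miR-124 is abundant in neurons, and miR-122 is by far the most abundant miRNA of hepatocytes.

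Mature sequences are shown for the 6 members found by name in the RefSeq miRNA table (assembly GRCr8), because the array tells neighbouring or related miRNAs apart by these bases alone. They run 5′ to 3′, with the seed, bases 2 to 8, in capitals.
miR-141-3p: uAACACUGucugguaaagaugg
miR-200c-3p: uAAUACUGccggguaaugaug
miR-142-5p: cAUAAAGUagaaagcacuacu
miR-142-3p: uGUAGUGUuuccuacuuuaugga
miR-223-3p: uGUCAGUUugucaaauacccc
miR-122-5p: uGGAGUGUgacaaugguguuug
The other 4 members, miR-200a-3p, miR-200b-3p, miR-150-5p and miR-124-3p, are named only. The 6 seeds shown all differ. Within the miR-200 family, miR-200a-3p is known to share the seed of miR-141-3p, and miR-200b-3p that of miR-200c-3p. miR-141-3p and miR-200c-3p, of one family, are identical at 17 of 21 positions. Positions are counted from 1 at the 5′ end. Read from miR-141-3p to miR-200c-3p, the differences are C4U, which lies in the seed, and U9C, U11G and A17U outside it. Among these 6, GC content ran from 33.3% in miR-142-5p to 45.5% in miR-122-5p.

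In the GRCr8 annotation miR-141-3p lies at chr4:159209540-159209561 and miR-200c-3p at chr4:159209969-159209989, both on the minus strand, with 346 bases between their hairpins and no protein-coding gene overlapping them. The nearest protein-coding genes, within 10000 bases, are Phb2, Emg1 and Ptpn6. Both arms of miR-142 lie on the plus strand inside the annotated span of Tspoap1, at chr10:73055119-73055139 for the 5p arm and chr10:73055155-73055177 for the 3p arm. miR-223-3p (chrX:65151450-65151470, plus strand) lies inside the long noncoding RNA gene LOC120099372. miR-122-5p (chr18:61028831-61028852, plus strand) lies inside a transcribed pseudogene, LOC134482951. Whether these positions are exonic or intronic was not determined from the gene table.

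The minus strand opposite miR-122-5p carries a second annotated miRNA, miR-3591, at chr18:61028831-61028850. It is shown because its sequence is the exact complement of part of miR-122-5p, so the strand alone separates the pair.
miR-3591: aacaccauugucacacucca
Likewise, a hairpin named Mir3575 overlaps Mir200c on the opposite strand, although its mature product (chr4:159210014-159210031) does not reach miR-200c-3p. The files pair no probe set with these 2 names, so their signals were not analysed here.

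The members were put into 2 classes of signal, divided at a mean of 4 log2 over the arrays. miR-200c-3p, miR-150-5p, miR-223-3p and miR-122-5p had log2 signals between 4.02 and 7.04 on all 6 arrays, brighter than 73.6% to 86.4% of the 728 mature probe sets of the same array. The other 6 members had signals between 0.09 and 2.58, and without miR-142-5p the other 5 lay between 0.09 and 1.51. Each lineage with more than 1 member was split by this: 1 of 4 epithelial and 2 of 4 blood markers were in the class with the higher signals, and the single liver marker was, whereas the single neural marker was not. Probe sets differ in how well they bind and label, so a brighter probe set is not evidence of a more abundant miRNA, and these positions describe signals only.

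**Figure D1:**
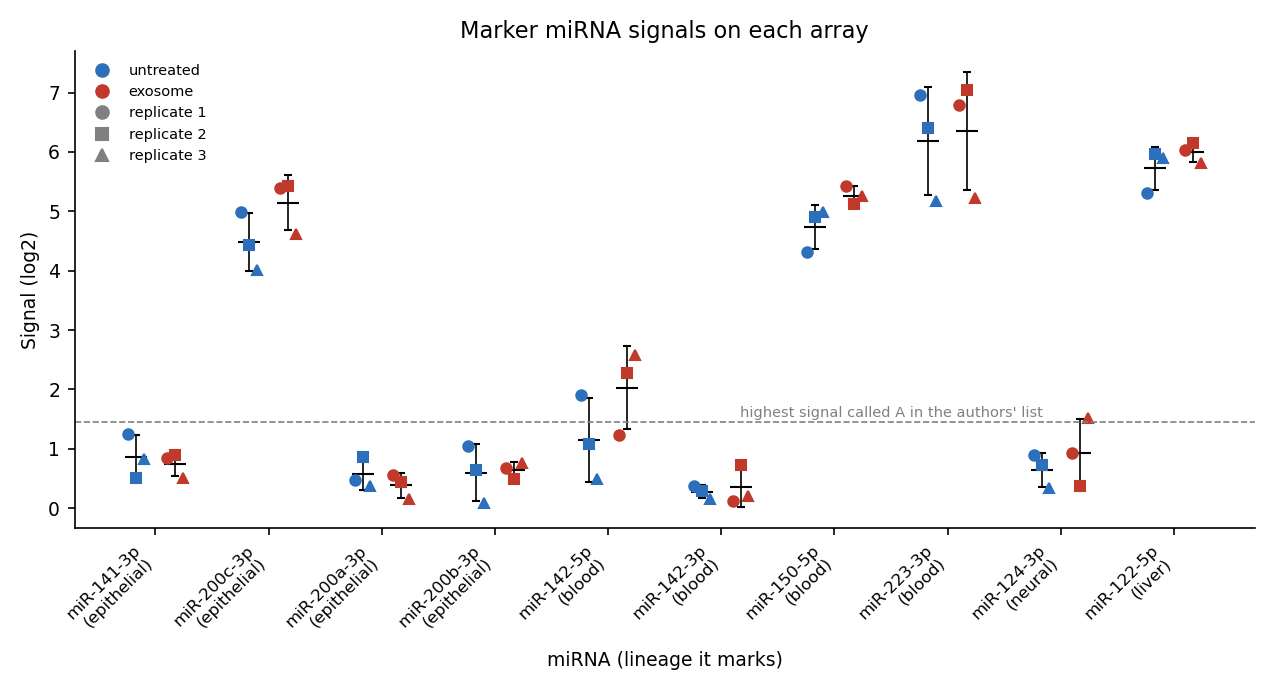
Signals of the 10 marker miRNAs (log2, y axis) on each of 6 arrays, untreated in blue and exosome-treated in red, with marker shapes for replicates and black bars for mean ± SD of 3 arrays. The dashed line is the highest signal that the authors' list calls not detected, 1.46; miR-200c-3p, miR-150-5p, miR-223-3p and miR-122-5p lie far above it on all 6 arrays.

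The deposited files give detection calls for 22 other miRNAs and for 0 of these 10. Among the 132 calls in the authors' deposited table, the 6 signals called not detected ran from 0.40 to 1.46 and the lowest called detected was 0.82, so the calls overlapped in a narrow range of dim signals. All 24 signals of miR-200c-3p, miR-150-5p, miR-223-3p and miR-122-5p lay above 1.46. miR-142-5p exceeded it on 3 of 6 arrays and miR-124-3p on 1, while miR-141-3p, miR-200a-3p, miR-200b-3p and miR-142-3p did so on none. Calls are made against each probe set's own background, so this is a comparison of signals and not a detection call for the members.

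Among the epithelial markers, miR-200c-3p was the one with clear signals. Its log2 signals were 4.99, 4.43 and 4.02 in untreated replicates 1, 2 and 3 and 5.39, 5.43 and 4.62 in exosome replicates 1, 2 and 3. The groups overlapped, because exosome replicate 3 lay below untreated replicate 1, and replicate 3 was the dimmest in both groups. Its group means were 4.48 ± 0.49 without and 5.15 ± 0.46 with exosomes (SD, n = 3). miR-141-3p, transcribed from the neighbouring hairpin, had 1.25, 0.51 and 0.84 in untreated replicates 1, 2 and 3 and 0.84, 0.90 and 0.51 in the exosome replicates. Between 31.9% and 56.5% of mature probe sets were dimmer than miR-141-3p on the same array, in a table where most are dim. The neighbours were therefore on opposite sides of the division on all 6 arrays.

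miR-200a-3p and miR-200b-3p come from the family's second gene cluster. miR-200a-3p ran from 0.37 to 0.86 on the untreated arrays and from 0.15 to 0.56 on the exosome arrays. miR-200b-3p ran from 0.09 to 1.05 on the untreated and from 0.49 to 0.77 on the exosome arrays. Both overlapped between the groups, and neither reached the signal of 1.46 on any array. Summed on the linear scale, the 4 epithelial markers gave 20.4 to 37.6 units on untreated and 28.8 to 47.8 on exosome arrays, at most 0.0137% of the summed signal of all mature probe sets. Most of this sum was miR-200c-3p, whose own signals ran from 16.2 units in untreated replicate 3 to 43.1 in exosome replicate 2. Such a share is one of signal, and not of miRNA molecules or cells.

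Among the blood markers, miR-223-3p was the brightest of all 10 members. Its log2 signals were 6.97, 6.40 and 5.18 in untreated replicates 1, 2 and 3 and 6.80, 7.04 and 5.22 in exosome replicates 1, 2 and 3. The groups overlapped, and the wide spread lay within them, with replicate 3 lowest in both. The within-group SDs, 0.91 without and 0.99 with exosomes, exceeded those of 97.0% and 95.5% of the 66 mature probe sets whose mean lay within 1 log2 of its own, itself included. Replicate 3 was the dimmest array of both groups for 69 (40.4%) of the 171 mature probe sets whose mean was 5 or more, called bright from here on (miR-200c-3p, with a mean of 4.81, is not one of them), and the part of this in the miR-223-3p pattern was not tested.

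miR-150-5p had log2 signals of 4.32, 4.90 and 4.99 in untreated replicates 1, 2 and 3 and 5.42, 5.12 and 5.26 in exosome replicates 1, 2 and 3. It was the only member whose groups did not overlap, with every exosome array above every untreated one. This was common: 15.9% of all mature probe sets were higher without overlap, as were 37.4% of the 171 bright ones. Its means were 4.74 ± 0.37 without and 5.27 ± 0.15 with exosomes (SD, n = 3), and the latter SD exceeded those of 14.5% of the 62 mature probe sets within 1 log2 of its mean.

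The arms of miR-142 were both dim. miR-142-5p had 1.90, 1.07 and 0.49 in untreated replicates 1, 2 and 3 and 1.24, 2.28 and 2.58 in exosome replicates 1, 2 and 3, with overlap between the groups and a range of 2.09 log2 over the arrays. miR-142-3p ran from 0.16 to 0.38 on untreated and from 0.12 to 0.72 on exosome arrays, and its 6-array mean of 0.32 was the lowest of the 10 members. The summed linear signal of the 4 blood markers was 70.6 to 150 units on untreated and 82.8 to 173 on exosome arrays, or 0.0246% to 0.0468% and 0.0259% to 0.0495% of the mature total. These too are shares of signal, and not of miRNA molecules or cells. In RNA from a whole culture, fewer cells of a type and less RNA per cell cannot be told apart.

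The neural marker miR-124-3p ran from 0.33 to 0.89 on the untreated arrays. It had 0.93, 0.38 and 1.51 in exosome replicates 1, 2 and 3, so that the groups overlapped and 1 array exceeded the rest. The liver marker miR-122-5p had clear signals. Its signals were 5.31, 5.96 and 5.91 in untreated replicates 1, 2 and 3 and 6.03, 6.16 and 5.81 in exosome replicates 1, 2 and 3. The groups overlapped, since exosome replicate 3 lay below untreated replicates 2 and 3. Means were 5.73 ± 0.36 without and 5.999 ± 0.17 with exosomes (SD, n = 3), and on each array between 78.4% and 82.1% of mature probe sets were dimmer.

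**Figure D2:**
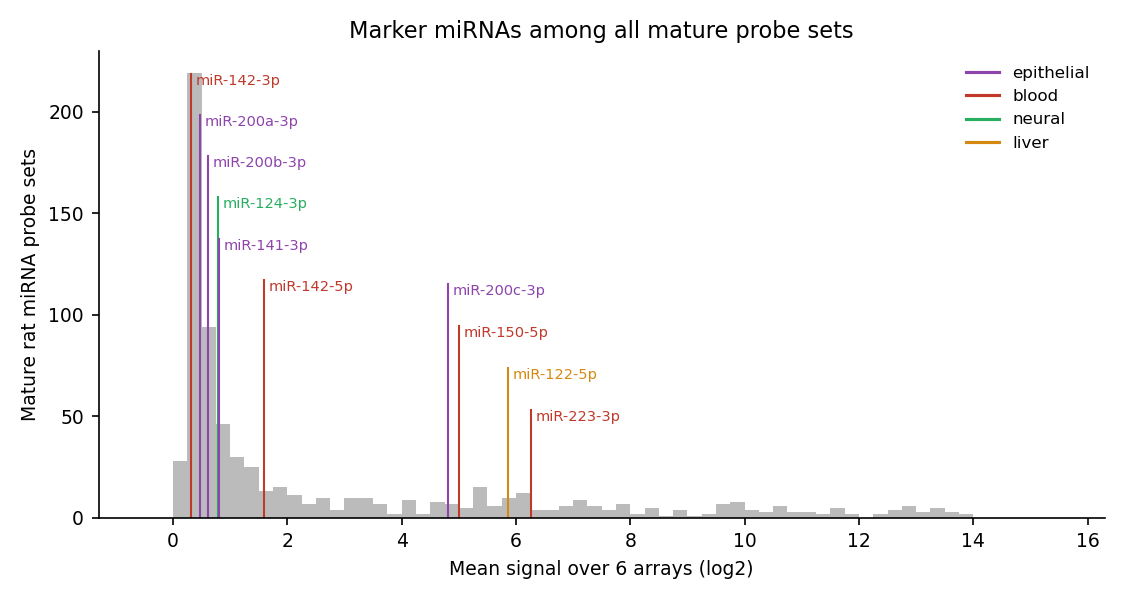
Number of mature rat miRNA probe sets (y axis) by mean signal over 6 arrays (log2, x axis), in grey for all 728, with vertical lines at the means of the 10 marker miRNAs coloured by lineage; line heights only separate the labels. The lines of 6 markers stand in the crowded dim end and those of miR-200c-3p, miR-150-5p, miR-122-5p and miR-223-3p between 4.81 and 6.27.

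The comparison of exosome-treated with untreated CSCs asked which miRNAs differ after exposure to the vesicles. None of the 10 markers passed the test: with limma and Benjamini-Hochberg adjustment over all 728 mature probe sets, 0 of 10 had an adjusted p under 0.05, against 0% of all mature probe sets. At an unadjusted p under 0.05 there was 1 of 10, miR-150-5p, against 106 of 728 (14.6%). That unadjusted call was kept under 4 of 16 alternatives. It was lost after quantile normalization (limma, 0.364), with an intensity trend (0.152), with a replicate block (0.0784), and after both forms of centring. Both filters on dim probe sets ended it too, at limma p of 0.0681 for a mean of 2 and 0.0505 for a mean of 5. A floor of 4 log2, which kept the call, gave 0.0499. The difference was the same in these 3 settings, so kept and lost lie close together there. Leaving out any single array except untreated replicate 3 also ended the call. Other members had an unadjusted limma p under 0.05 under some alternatives only. These were miR-200c-3p under 3 of 15, miR-200a-3p and miR-142-5p each under 2 of 13, and miR-141-3p under 1 of 13. Of the 10, 8 had a higher mean with exosomes, with a median difference of 0.22 log2, whereas 469 of 728 (64.4%) were higher over all mature probe sets, with a median of 0.08. For the 171 bright probe sets this median was 0.39 log2, and 144 had a higher mean with exosomes. The 4 markers with clear signals had means from 4.81 to 6.27. Among the 88 mature probe sets with a mean from 4 to under 7, the median was 0.53 log2 and 73.9% were higher. Close to that median was miR-150-5p (0.53), with miR-200c-3p (0.67) above it and miR-122-5p (0.27) and miR-223-3p (0.17) below. The part of these shifts in the differences of the 4 markers was not tested.

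On the deposited values miR-142-5p had a difference of 0.88 ± 0.48 log2 (SE), with a 95% interval from -0.28 to 2.03 (limma adjusted p = 0.448). Its signals are dim, and the difference was 1.27 without exosome replicate 1, 1.25 without untreated replicate 1 and 0.55 without untreated replicate 3. miR-200c-3p differed by 0.67 ± 0.33 log2 (SE), or 1.59-fold, with an interval from -0.13 to 1.47 (limma adjusted p = 0.420). The miR-200c-3p difference was 0.93 without exosome replicate 3 and 0.44 without untreated replicate 3, in which the signal was lowest. miR-150-5p, which has the smallest unadjusted p of the 10 (limma, 0.0460), differed by 0.53 ± 0.21 log2 (SE), or 1.44-fold (interval 0.013 to 1.05; adjusted p = 0.328). Without untreated replicate 1, the array with its lowest signal, the difference was 0.32, and it was 0.26 after quantile normalization and -0.019 with arrays centred on the level of bright miRNAs.

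miR-122-5p differed by 0.27 ± 0.21 log2 (SE; interval -0.25 to 0.79; limma adjusted p = 0.627), and the sign turned after quantile normalization, at -0.093. Without untreated replicate 1, its dimmest array, the difference was 0.065. miR-223-3p differed by 0.17 ± 0.63 log2 (SE; limma adjusted p = 0.932), and after quantile normalization by -0.40. Its interval, from -1.36 to 1.71 log2, is the widest of the 10, so changes of over 1 log2 in either direction lie within it. Leaving out single arrays took the value of miR-223-3p from -0.33 to 0.74. The brightest marker thus had a difference whose sign changed with the array left out.

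For the remaining dim members the values were small beside their intervals. miR-124-3p differed by 0.29 log2 (interval -0.47 to 1.05), and by 0.0013 without exosome replicate 3. miR-142-3p differed by 0.07 (-0.40 to 0.54) and miR-200b-3p by 0.05 (-0.57 to 0.67). miR-141-3p and miR-200a-3p were lower with exosomes, by -0.12 (-0.66 to 0.43) and -0.19 (-0.65 to 0.27). The limma adjusted p of these 5 ran from 0.732 for miR-200a-3p to 0.947 for miR-200b-3p. All 5 intervals include 0, and all 5 probe sets had group means under 1 log2 in both groups.

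**Figure D3:**
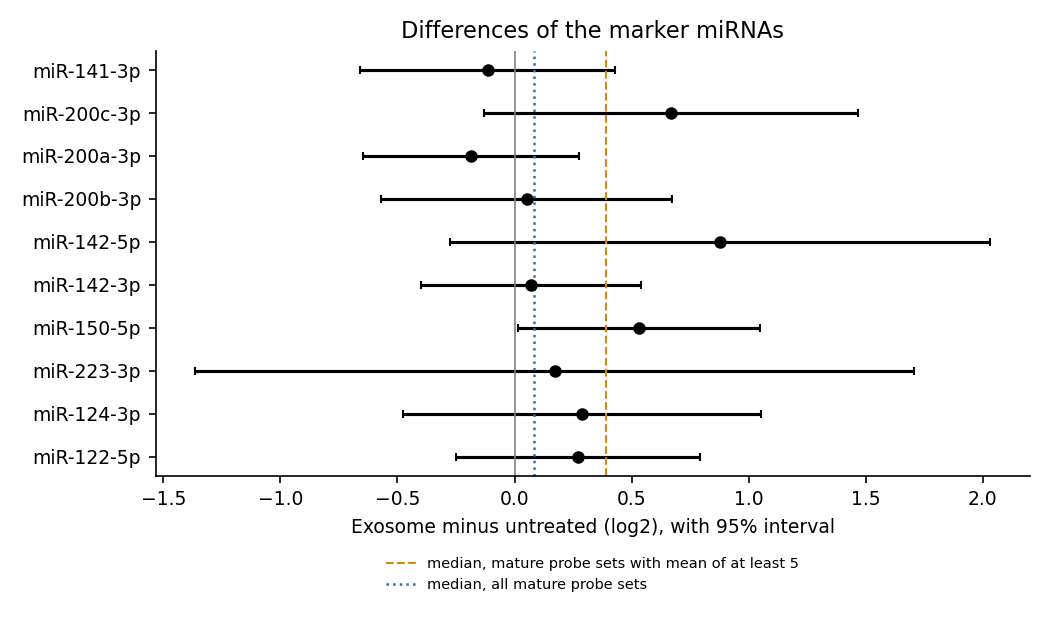
Exosome minus untreated differences of the 10 marker miRNAs (log2, x axis), as points with limma's 95% intervals, 3 arrays per group. The dotted line marks the median of all 728 mature probe sets (0.08) and the dashed line that of the 171 bright ones (0.39). The median of the 88 with a mean from 4 to under 7, 0.53, is not drawn. Only the interval of miR-150-5p leaves out 0, before adjustment.

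The number of members with a higher mean depended on the scaling of the arrays. On the deposited values 8 of 10 were higher with exosomes, against 64.4% of all mature probe sets. After quantile normalization 6 of 10 were, against 52.6%. With arrays centred on the median deviation of bright probe sets 3 of 10 were, against 21.2%, and centred on their median level 2 of 10 were, against 14.6%. miR-200c-3p and miR-142-5p were above 0 under all 4 scalings, and their size depended on the scaling. miR-200c-3p went from 0.67 log2 to 0.35 after quantile normalization, 0.29 after centring on deviation and 0.12 after centring on level. miR-142-5p had 0.88 on the deposited values and 0.94, 0.50 and 0.33 under the same settings. miR-141-3p and miR-200a-3p were below 0 under all 4. Both forms of centring lower every difference, so a value already below 0 could not turn under them. Without untreated replicate 1, the difference of miR-141-3p on the deposited values was 0.075. Centring on the level of bright probe sets moved the median difference of all mature probe sets by -0.55 log2, centring on their deviation by -0.38 and quantile normalization by -0.07, and these shifts are contained in the members' values. Under the first of these, miR-141-3p and miR-200a-3p differed by -0.67 and -0.74 log2, with limma adjusted p of 0.180 for both.

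**Figure D4:**
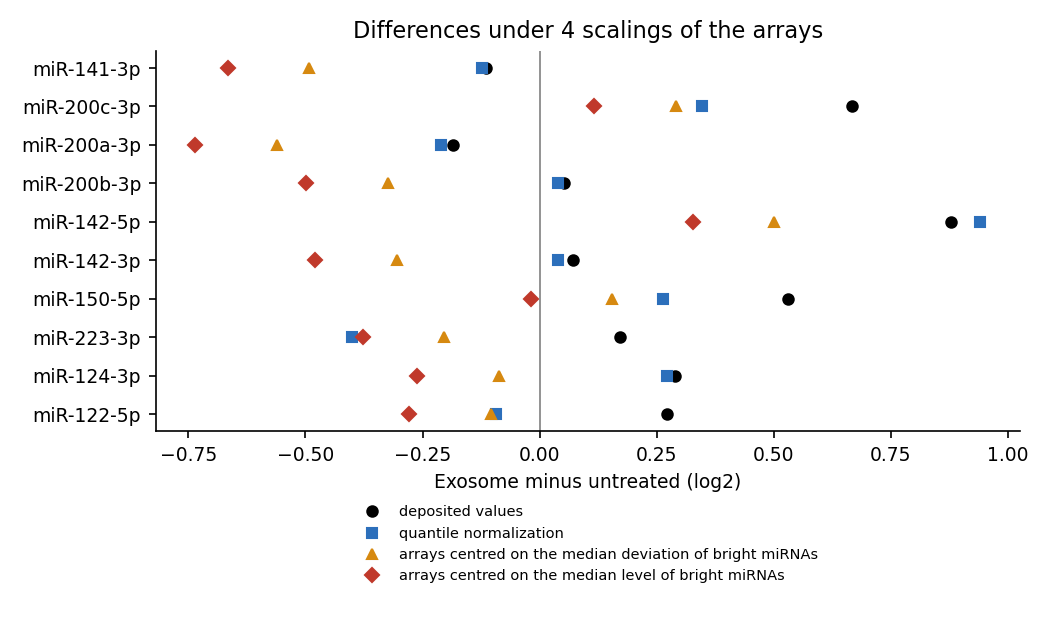
Exosome minus untreated differences (log2, x axis) of the 10 marker miRNAs under the deposited values and 3 other scalings of the arrays, 1 symbol per scaling. The points of miR-223-3p and miR-122-5p cross 0 after quantile normalization. Each form of centring moves the points of all 10 markers left by the same amount.

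The order of the arrays differed between the 4 markers with clear signals. For miR-200c-3p and miR-223-3p replicate 3 was the dimmest array of both groups, whereas for miR-150-5p and miR-122-5p untreated replicate 1 was the dimmest of all 6. miR-150-5p and miR-223-3p, both blood markers, thus had their lowest untreated signal on different arrays. Over all bright probe sets, the median deviation from a probe set's own mean was also lowest on untreated replicate 1, at -0.25 log2. It was -0.24 on untreated replicate 3, and exosome replicate 3 had the lowest value of the exosome arrays, 0.025. The part of this in the order of the markers was not tested. Among the other 170 bright probe sets, those most like miR-223-3p over the 6 arrays were MIMAT0003152_st (Pearson's r = 0.99) and MIMAT0017163_st (r = 0.97), with a further one at 0.95. These probe sets were picked as the highest of 170 values over only 6 arrays, so their r does not show a particular relation to miR-223-3p. The files do not name them, and the 6 arrays share their groups and scaling.

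Whether the cultures carry the miRNAs of heart or mesenchymal cells could not be set beside these values by name. Of the lists for muscle (7 miRNAs), mesenchymal and smooth muscle cells (7) and endothelium (2), 0 miRNAs are paired with a probe set by the files. The lists for the marked lineages held 11 epithelial, 9 blood, 10 neural and 2 liver miRNAs, of which 4, 4, 1 and 1 are the members above and the others are unnamed here. All 10 members together gave 152 to 229 linear units on untreated and 171 to 293 on exosome arrays, or 0.0530% to 0.0715% and 0.0534% to 0.0840% of the summed mature signal. Because probe sets differ in binding and labelling, this share does not measure a fraction of miRNA or of cells of other lineages. The dim members also add signal from near the bottom of the scale.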

How the data were processed

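Total RNA was extracted with Trizol and labelled with biotin (FlashTag), per the labels' protocols, and hybridized to Affymetrix miRNA 4.0 arrays, per the file headers. Affymetrix Expression Console and MAS5 are listed in the submitters' processing notes, but RMA and detection above background in the headers, and which of them applies is not settled here. The authors deposited log2 signals. For the 22 miRNAs of their list these are identical (largest difference 0) to the signals in the columns headed RMA and detection above background. Detection calls (P or A, other than a number) were deposited by the authors for that list alone. Of the 4368 mature values, 9.75% equal, to the last digit, a value on another array. All 6 value columns were matched to samples and 0 left unmapped.

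The 728 mature probe sets were tested as deposited, without rescaling, by limma 3.58.1 (lmFit, eBayes; R 4.3.3), as exosome minus untreated. P-values were adjusted by Benjamini and Hochberg's method over all of them, with calls at 0.05. Hairpin and control probe sets stayed out of the fit. Of mature probe sets, those averaging 5 or more over all arrays are called bright. Member names come from the definition of the set, and 6 of 10 matched the RefSeq miRNA table by name. Members and lists were chosen with earlier results of these data known. The text names all members, fixed list miRNAs where named, and the probe sets most like the brightest member. In simulated arrays with 200 of 728 probe sets changed, the test of exosome against untreated found 36.9% of changes of 0.5 log2, 73.5% of 1 and 91.1% of 2. All these changes were increases, and so many ease the adjustment, whereas 0 passed on the real arrays. The shares are averages over probe sets of every brightness. Median SDs over all mature probe sets were 0.21 with and 0.22 without exosomes, against 0.99 and 0.91 for miR-223-3p. They therefore do not tell how often a change in a single member would be found. The number of arrays limits precision. Other calculations used Python 3.11.15, pandas 2.3.3, numpy 2.4.6 and matplotlib 3.10.9.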

Additional observations from a re-analysis of the deposited data

How the results depend on the processing

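Under every alternative, 0 of the markers it could test had a limma adjusted p under 0.05; the floor at 4 and the filter at a mean of 2 left out the 6 dim members, and the filter at 5 left out miR-200c-3p as well. Over all mature miRNAs 0 passed, except without exosome replicate 3 (23) and without untreated replicate 1 (1), so the count ran from 0 to 23 over the 6 left-out arrays. At an unadjusted p under 0.05 there were 106, and 38 without exosome replicate 2, 57 without exosome replicate 1, 68 after quantile normalization, 70 with a floor of 4 log2, 61 and 58 among probe sets whose mean reached 2 and 5, and 199 and 163 after centring on the median level and median deviation of bright miRNAs. miR-200c-3p, miR-150-5p, miR-223-3p and miR-122-5p had both group means at or above 4 under every scaling. These 4 were classed by a mean of at least 4 on the deposited values, and centring hardly moves a mean over all arrays. That result was thus largely set in advance. The members' median difference was 0.22 log2, 0.04 after quantile normalization, -0.33 after centring on bright level and -0.15 after centring on bright deviation, a setting chosen after seeing the data; a floor of 4 fixes the 6 dim members at 0, so that the median of 0 it gives is set by the floor. Directions turned for miR-223-3p and miR-122-5p after quantile normalization (-0.40 and -0.093), for miR-200b-3p, miR-142-3p, miR-150-5p, miR-223-3p, miR-124-3p and miR-122-5p after centring on level (-0.50, -0.48, -0.019, -0.38, -0.26 and -0.28), and for 5 of these after centring on deviation (-0.32, -0.30, -0.20, -0.087 and -0.10 for miR-200b-3p, miR-142-3p, miR-223-3p, miR-124-3p and miR-122-5p). Both forms of centring take a group difference of bright probe sets off every probe set by construction. Over left-out arrays miR-223-3p ran from -0.33 to 0.74, miR-141-3p from -0.29 to 0.075, miR-200b-3p from -0.20 to 0.28 and miR-142-3p from -0.12 to 0.19 log2, and, without a change of sign, miR-142-5p from 0.55 to 1.27, miR-124-3p from 0.0013 to 0.57, miR-122-5p from 0.065 to 0.39 and miR-200a-3p from -0.28 to -0.04; beyond the missing array, the cause was not tested. Same-numbered arrays of the 2 groups deviated together at r of 0.09, 0.18 and 0.21 over the 171 bright probe sets, so that not every pair exceeded 0.1, and exosome replicate 1 correlated best with untreated replicate 2 (0.17). With the replicate number as a block, 0 mature miRNAs passed and 111 had an unadjusted p under 0.05; the block takes miR-150-5p from an unadjusted limma p of 0.0460 to 0.0784, which ends that call, and miR-200c-3p from 0.0874 to 0.0157 (adjusted 0.212). Signals near the bottom of the scale limit what can be said of the 6 dim members.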
